A study of Mus musculus with 12 samples.

Results

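RNA of the mouse cochlea was compared between a double mutant, titled as β-catenin overexpression with Notch1 knockout, and Control. The 6 samples of this comparison, 3 per group, are part of 12 in all, and the other 6 form the 2 single groups, β-catenin OE (overexpression) and Notch1 KO (knockout). Samples were chosen by their titles, and genes are described over the 14581 rows that passed a filter on low values. Every group was taken at postnatal day 7 from apical and middle cochlear turns, the RNA of 6 or more cochleae being combined for a group's isolation, per the labels. The labels name no strain, sex, allele, promoter or Cre driver, so the cells in which either gene was changed are not known from them. Nor do they state whether a group's 3 samples are 3 pools of animals, and p-values here therefore refer to the scatter of these samples, which may be technical. The series asks about division of supporting cells and new hair cells after such genetic changes in the newborn cochlea.

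The organ of Corti, the hearing epithelium of the cochlea, holds sensory hair cells set among supporting cells. In the Wnt pathway, secreted Wnt ligands bind Frizzled receptors and spare β-catenin (Ctnnb1) from destruction, after which β-catenin joins TCF/LEF factors at target genes. In the Notch pathway, ligands of one cell bind the Notch1 receptor of its neighbour, which is then cut. The freed part of the receptor joins the factor RBPJ to switch on repressors of the Hes and Hey families. In the developing cochlea Notch signalling is known for keeping supporting cells from becoming hair cells, and Wnt signalling for driving division of Lgr5-bearing progenitors.

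The upstream sequences of a Wnt target that rose and of Notch pathway genes that fell are shown first, since both factors named above read known motifs and the results turn on these genes. They are the 250 bases before the annotated start in RefSeq (GRCm38.p6), 5′ to 3′ on the gene's strand, which is the plus strand for all 3 genes. Sp5, which encodes a transcription factor induced by Wnt signalling, lies at chr2:70474673-70474922. Hes5, a Notch-driven repressor, is shown from chr4:154960673-154960922, and Lfng, which adds sugars to Notch receptors, from chr5:140607091-140607340. In all 3, capitals mark the TCF motif CTTTGAT and the RBPJ motif TGGGAA, each on either strand.
Sp5: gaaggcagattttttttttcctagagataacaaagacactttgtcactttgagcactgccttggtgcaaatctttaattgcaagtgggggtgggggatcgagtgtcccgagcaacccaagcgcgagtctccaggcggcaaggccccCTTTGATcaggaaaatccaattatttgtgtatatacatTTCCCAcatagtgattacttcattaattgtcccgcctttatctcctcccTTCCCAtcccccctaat
Hes5: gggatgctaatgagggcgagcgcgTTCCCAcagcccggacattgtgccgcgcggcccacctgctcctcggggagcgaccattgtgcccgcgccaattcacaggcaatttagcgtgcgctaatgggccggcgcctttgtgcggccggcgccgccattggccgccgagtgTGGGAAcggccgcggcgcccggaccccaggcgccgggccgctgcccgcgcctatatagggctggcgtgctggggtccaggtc
Lfng: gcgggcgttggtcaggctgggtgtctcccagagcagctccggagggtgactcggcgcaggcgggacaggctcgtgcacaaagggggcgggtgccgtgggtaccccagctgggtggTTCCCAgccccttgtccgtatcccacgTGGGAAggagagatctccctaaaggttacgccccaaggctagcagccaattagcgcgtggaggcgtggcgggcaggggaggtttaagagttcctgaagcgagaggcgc
The TCF motif was searched as CTTTGAT or ATCAAAG and the RBPJ motif as TGGGAA or TTCCCA, and no matches overlap in these windows. Sp5 held 1 TCF match and 2 RBPJ matches, and Hes5 and Lfng each held 0 TCF matches and 2 RBPJ matches. Over 27025 promoters of the same length, 3.23% held the TCF motif and 21.5% the RBPJ motif. Of the 19 Wnt targets called below 12 matched the promoter table, of which 1 held the TCF motif and 3 the RBPJ motif. Of the 7 called Notch genes 4 matched, of which 0 held the TCF motif and 2 the RBPJ motif. The RBPJ motif thus occurred in genes of both pathways. Sp5 is the 1 Wnt target with the TCF motif, and Hes5 and Lfng are the 2 Notch genes with the RBPJ motif. The sequences shown are therefore not typical of the called genes. These matches describe letters in a window and not binding.

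Levels are given as FPKM, a fragment number divided by transcript length and library size, so that genes can be compared with each other. Differences are log2 fold changes on the log2(FPKM + 0.5) scale with their standard error, which understates the change of low genes. A gene is called, and described as higher or lower, where limma's adjusted p (Benjamini-Hochberg over all rows tested) is below 0.05. In bulk RNA, fewer cells of a type and less RNA per cell cannot be told apart.

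The samples did not form even groups of 3. Over 5889 genes of at least 10 FPKM, samples 2 and 3 of a group lay closer together (robust SD of their log2 difference 0.0756 in double and 0.133 in Control) than either lay to sample 1 (0.309 and 0.337 in double, 0.395 and 0.361 in Control). Double samples 2 and 3 held next to no Xist, the RNA of the inactive X chromosome (19.5, 0.0239 and 0.0146 FPKM in double, against 84.5, 28.7 and 25.6 FPKM in Control). Control sample 1 held no Ddx3y, a gene of the Y chromosome (11.5, 24.3 and 24.2 FPKM in double, against 0, 16.7 and 15.1 FPKM in Control). These sex-linked RNAs thus differed within and between the groups, and their part in the results was not tested. Control sample 1 also stood apart in markers of other cell types, such as the neuronal gene Nefl, which had 15.8, 25.9 and 25.5 FPKM in double, against 93.3, 21.3 and 24.6 FPKM in Control. Markers of the labelled tissue were present in all 6 samples, among them the hair cell gene Otof (26.3, 22.3 and 20.6 FPKM in double, against 16.6, 19.5 and 20.8 FPKM in Control) and the supporting cell gene Epyc (1577, 2459.9 and 2548 FPKM in double, against 2363, 3786 and 3344 FPKM in Control). Median FPKM over tested rows was 9.39 to 9.99 in the double samples and 9.66 to 9.86 in the Control samples, and the library depths are not given.

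In the double group against Control, 858 genes were higher and 968 were lower, which is 5.88% and 6.64% of the genes tested, or 12.5% together. Counts of list members given below are to be read against these shares. With the sample number as a block 2934 genes were called, and with samples 2 and 3 averaged to 1 value 259 were called, 159 higher and 100 lower, all of them also called with the samples kept apart. Without double sample 2 or 3 the count was 1128 or 1198. Among called genes 114 rose and 36 fell by at least 2 on the log2 scale, and the median was 0.96 for genes higher and -0.82 for genes lower. The double and Control samples did not overlap in 854 of the genes higher and 966 of those lower, where 15.9% and 17.5% of all tested genes lay apart in these directions. In the authors' deposited table, 798 of the 1826 genes called here carry the lowest p-value given, 5e-05, and 170 carry one above 0.05.

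**Figure D1:**
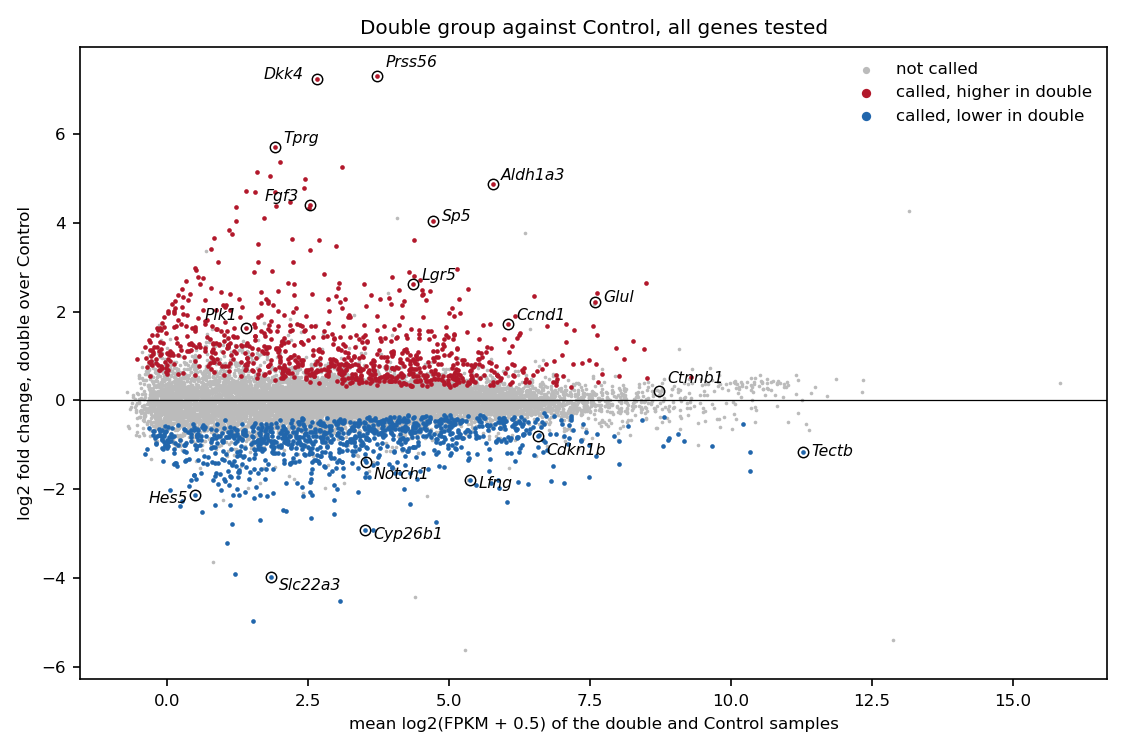
Each point is 1 of the 14581 genes tested, with the mean log2(FPKM + 0.5) of the 6 samples on the x axis and the log2 fold change of double over Control on the y axis. Red points are called higher, blue points called lower, and the named genes range from Prss56 (7.31) to Slc22a3 (-3.98), with Ctnnb1 (0.21) not called.

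Notch1 (chromosome 2, 26457674 to 26503822, mm10), the receptor that was knocked out, had 8.62, 5.7 and 5.77 FPKM in double samples 1, 2 and 3, against 24.3, 14.7 and 16.6 FPKM in the Control samples. All double samples lay below all Control samples, and none reached 0. The log2 fold change of -1.39 ± 0.30 passed the test (adjusted p = 0.0113), and its call ended with samples 2 and 3 averaged. A residual of the receptor RNA was therefore measured in pooled turns, and the table holds no value per exon. Ctnnb1 (chromosome 9, 120933363 to 120960513), the gene of β-catenin, had 408, 482 and 472 FPKM in double, against 435, 369 and 372 FPKM in Control. Double sample 1 lay among the Control samples, and the difference of 0.21 ± 0.12 did not pass (adjusted p = 0.285). A rise in Ctnnb1 RNA was thus not called, although the titles name overexpression.

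In the Notch pathway the enzyme Lfng and a set of effector genes fell, while most receptors, ligands and processing genes did not pass the test. Of 26 tested receptors, ligands and processing genes, 0 rose and 2 fell (median log2 fold change -0.12, against -0.02 over all genes), and at an unadjusted p under 0.05 1 was higher. The ones that fell were Notch1 and Lfng. Lfng (chromosome 5, 140603667 to 140615679) had 18.6, 24.1 and 22.8 FPKM in double, against 81.2, 68.4 and 80 FPKM in Control, a log2 fold change of -1.79 ± 0.15 (adjusted p = 2.89e-05). The groups lay far apart, and the call held with samples 2 and 3 averaged. Jag1, the Notch ligand of supporting cells, had 34.7, 33.8 and 35.1 FPKM in double, against 31.9, 40.4 and 41 FPKM in Control, and these values overlap. Rbpj, the DNA-binding partner of cut Notch, had 23.2, 24.6 and 26.4 FPKM in double, against 26.2, 26.3 and 24.5 FPKM in Control, which overlap too.

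Of 13 tested Notch effectors, 3 fell and 2 rose (median near 0). Hes5 (chromosome 4, 154958744 to 154963366) had 0.149, 0.159 and 0.201 FPKM in double, against 1.01, 3.18 and 3.98 FPKM in Control. Its double samples were all near 0 and its Control samples differed among themselves, sample 1 being the lowest, with a log2 fold change of -2.13 ± 0.35 (adjusted p = 0.00206). Hey1, a repressor that marks the early sensory domain, had 26.5, 23.8 and 24.5 FPKM in double, against 69.5, 61.9 and 61 FPKM in Control, a log2 fold change of -1.34 ± 0.16 (adjusted p = 0.000279). Heyl, a related repressor, had 5.87, 6.94 and 6.73 FPKM in double, against 12.1, 12.1 and 12.4 FPKM in Control and fell by 0.86 on the log2 scale (adjusted p = 0.000216). In both genes every double sample was below every Control sample. Hes6, which counters Hes repressors and marks new hair cells, had 44, 46.1 and 46.2 FPKM in double, against 17.9, 23.4 and 25.4 FPKM in Control and rose by 1.03 ± 0.18 (adjusted p = 0.00333). Hes1, a repressor that other pathways also drive, was called higher with 24.8, 19.7 and 20 FPKM in double, against 13.7, 12.6 and 12.1 FPKM in Control (0.72 ± 0.18), a call that ended without double sample 1, Control sample 2 or Control sample 3. Hey2 had 20.9, 19.9 and 20.1 FPKM in double, against 21.9, 19.8 and 19.5 FPKM in Control, and its groups overlap.

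Most Wnt targets rose, and none of the list was called lower. The list was chosen with earlier results of these data known, so its count is not independent of them. Its called members include Dkk4, Fgf20 and Prss56, which are among the largest rises described below. Of 32 tested targets and feedback inhibitors, 19 rose, 0 fell and 13 did not pass (median 0.69, against -0.02 over all genes and a background of 5.88% called higher), and at an unadjusted p under 0.05 1 was lower. The calls were 13 without double sample 2, 14 without double sample 3 and 16 to 19 without any other 1 library of these groups, 9 with samples 2 and 3 averaged and 10 with double sample 1 as the only double sample. Lgr5 (chromosome 10, 115450195 to 115587780), the R-spondin receptor that marks Wnt-responsive supporting cells, had 49.9, 50.9 and 50.2 FPKM in double, against 8.07, 7.48 and 7.71 FPKM in Control. The 3 double samples were nearly equal and all above Control, and the rise was 2.62 ± 0.15 (adjusted p = 2.15e-06). Sp5 had 161, 84.6 and 87.5 FPKM in double, against 5.83, 5.71 and 6.6 FPKM in Control, with double sample 1 the highest, a rise of 4.03 ± 0.28 (adjusted p = 8.69e-06). Axin2, which scaffolds the complex that destroys β-catenin and is a general Wnt target, had 56.6, 74.8 and 73.5 FPKM in double, against 20.3, 24 and 24.9 FPKM in Control and rose by 1.54 ± 0.20 (adjusted p = 0.000544).

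Secreted and membrane inhibitors of the pathway were among the genes that rose. Dkk4, a secreted Wnt antagonist, had 56.4, 93.1 and 86.7 FPKM in double, against 0, 0.0509 and 0 FPKM in Control, so that Control was at or near 0 in every sample. Its relative Dkk1 had 1.31, 2.96 and 3.03 FPKM in double, against 0.143, 0.0272 and 0.0933 FPKM in Control and rose by 2.26 ± 0.37 (adjusted p = 0.00206). Wif1, which binds Wnt ligands, had 137, 223 and 223 FPKM in double, against 89, 49 and 47 FPKM in Control and rose by 1.68 ± 0.26 (adjusted p = 0.00137). In these 3 genes double sample 1 was the lowest of the double samples and still above every Control sample. Nkd1, an intracellular inhibitor of Wnt signalling, had 234, 271 and 268 FPKM in double, against 97.8, 74.2 and 86 FPKM in Control, a rise of 1.58 ± 0.12 (adjusted p = 1.39e-05). Znrf3, a ubiquitin ligase that clears Frizzled receptors, had 9.45, 8.97 and 8.97 FPKM in double, against 5.29, 2.88 and 3.57 FPKM in Control, a rise of 1.16 ± 0.19 (adjusted p = 0.00174). Lgr6, a relative of Lgr5, had 36.4, 31.7 and 33 FPKM in double, against 10.4, 4.75 and 5.26 FPKM in Control (2.31 ± 0.29). Tcf7, a DNA-binding partner of β-catenin, had 48.2, 40.5 and 42.1 FPKM in double, against 18, 14.9 and 14.3 FPKM in Control (1.45 ± 0.17). The groups did not overlap in any of these genes. Listed targets that did not pass include Myc, a driver of growth, with 6.69, 6.33 and 5.64 FPKM in double, against 3.77, 4.31 and 4.38 FPKM in Control, groups that lay apart at 0.53 ± 0.23 (adjusted p = 0.171), and Sox4, a transcription factor, with 55.8, 47.5 and 47 FPKM in double, against 42.2, 51.4 and 51.7 FPKM in Control, where they overlap.

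Ligands and receptors of the Wnt pathway moved in both directions. Of 48 tested ligands, receptors and core components, 6 rose and 10 fell (median -0.10), and 4 of the rises and 3 of the falls kept their call without each single library. The ligand Wnt6 had 19.2, 20.8 and 20.2 FPKM in double, against 2.1, 3.03 and 3.4 FPKM in Control and rose by 2.64 ± 0.28 (adjusted p = 0.000113). Wnt10a, another ligand, had 8.28, 10.9 and 11 FPKM in double, against 0, 0.0316 and 0 FPKM in Control, close to 0 in Control. Wnt9b had 1.36, 1.08 and 1.23 FPKM in double, against 0.0106, 0.0253 and 0.00869 FPKM in Control and rose by 1.74 ± 0.23 (adjusted p = 0.000515). For all 3 ligands the double samples lay above the Control samples. Falling members were the ligand Wnt4, with 4.08, 4.55 and 4.54 FPKM in double, against 9.3, 7.95 and 8.64 FPKM in Control (-0.90 ± 0.16), and the secreted antagonists Sfrp1, with 86.8, 66.4 and 66.2 FPKM in double, against 131, 170.4 and 173 FPKM in Control (-1.11 ± 0.15), and Sfrp4, with 1.43, 1.46 and 1.53 FPKM in double, against 9.31, 3.45 and 4.38 FPKM in Control (-1.54 ± 0.31). Control sample 1 was the highest in Sfrp4 and the lowest in Sfrp1, and the groups of both lay apart.

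**Figure D2:**
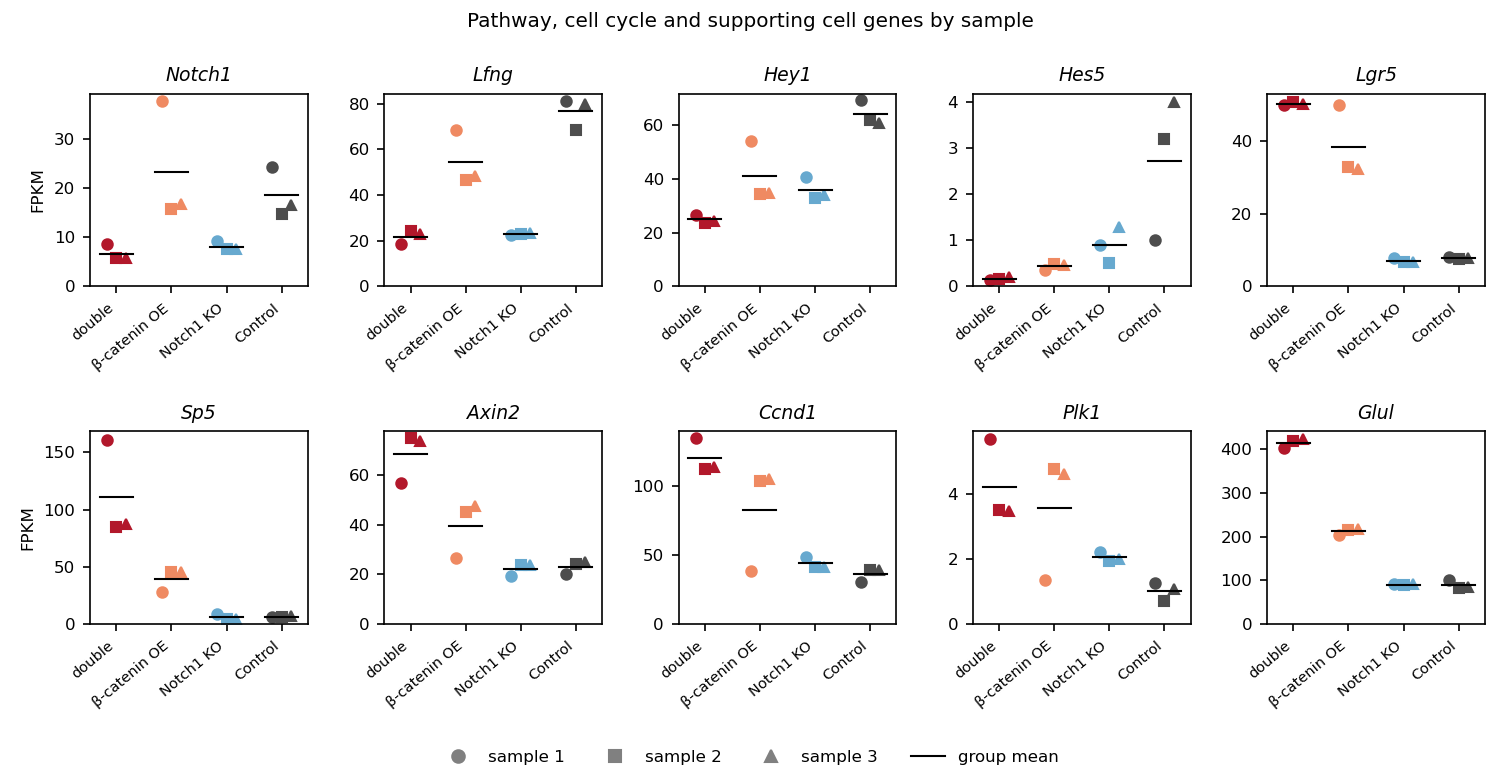
FPKM of 10 genes on linear axes from 0, with 1 point per sample, the marker giving the sample number and the line the group mean, for double, β-catenin OE, Notch1 KO and Control. Lgr5 is near 50 FPKM in the 3 double samples and near 8 in Control, Lfng lies at 18.6 to 24.1 against 68.4 to 81.2 FPKM, and Plk1 at 3.5 to 5.7 against 0.714 to 1.25 FPKM.

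The 12 largest rises were mostly in genes that Control hardly expressed. Prss56 (chromosome 1, 87182725 to 87188412), a secreted serine protease, had 150.1, 177 and 173 FPKM in double, against 0.223, 0.866 and 0.678 FPKM in Control, a rise of 7.31 ± 0.42 (adjusted p = 2.15e-06). Tprg had 17.4, 33 and 33.4 FPKM in double, against 0, 0.0224 and 0.0443 FPKM in Control (5.71 ± 0.32). Sstr1, a receptor for the peptide somatostatin, had 23.1, 26 and 26.5 FPKM in double, against 0.201, 0.134 and 0.0512 FPKM in Control (5.36 ± 0.35). All 3 double samples were far above Control in each. Dpp6, a subunit that tunes potassium channels, had 51.3, 53.5 and 53.1 FPKM in double, against 1.82, 0.529 and 0.619 FPKM in Control and rose by 5.26 ± 0.28 (adjusted p = 1.61e-06). Mixl1, a homeobox gene known from the early embryo, had 11.6, 14 and 13.5 FPKM in double, against 0.0293, 0 and 0.0182 FPKM in Control (4.71 ± 0.57). Pcdh8, a protocadherin of the cell surface, had 25.2, 15.8 and 16.1 FPKM in double, against 0.124, 0.328 and 0.268 FPKM in Control (4.70 ± 0.48). Cbln2, a secreted organiser of synapses, had 14.8, 13.4 and 15.4 FPKM in double, against 0.0189, 0.139 and 0.0947 FPKM in Control (4.69 ± 0.43). Double sample 1 was higher than samples 2 and 3 in Pcdh8 and lower than both in Tprg. Dcpp2 and Bpifb5, which encode secreted proteins, rose by 5.05 ± 0.58 and 4.99 ± 0.31. Dcpp2 had 6.69, 32.7 and 34.1 FPKM in double, against 0, 0.151 and 0.204 FPKM in Control, and near-identical copies lie beside it, so its reads may be shared among them. The rest of the 12 were Dkk4 and, described with their pathways below, Aldh1a3 and Fgf20.

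Among the 12 largest falls, Slc22a3 (chromosome 17, 12419974 to 12508286), a transporter of organic cations, fell furthest and had 0.302, 0.402 and 0.515 FPKM in double, against 11.8, 15.3 and 14.3 FPKM in Control, a log2 fold change of -3.98 ± 0.22 (adjusted p = 2.15e-06). Agr3, a protein of the secretory pathway, had 7.14, 11.7 and 12.2 FPKM in double, against 36.7, 105 and 89.1 FPKM in Control (-2.74 ± 0.34). Pcsk2, which cuts prohormones, had 1.22, 1.97 and 2.48 FPKM in double, against 10.9, 15.7 and 16.1 FPKM in Control (-2.64 ± 0.22). No double sample reached a Control sample in any of them. Dgkb, a diacylglycerol kinase, had 0.33, 0.35 and 0.346 FPKM in double, against 5.78, 5.33 and 4.78 FPKM in Control and fell by 2.78 on the log2 scale (adjusted p = 0.000164). Prdm12, a factor known from pain-sensing neurons, had 0, 0.00964 and 0.0314 FPKM in double, against 1.8, 2.04 and 2.71 FPKM in Control and fell by 2.37 (adjusted p = 3.74e-05). Pla2r1, a receptor of the phospholipase A2 family of ligands, had 1.5, 1.2 and 1.08 FPKM in double, against 6.18, 11.8 and 10.8 FPKM in Control (-2.48 ± 0.20). The membrane protein gene Mansc4 had 2.02, 3.01 and 3.18 FPKM in double, against 29.6, 14.8 and 13.7 FPKM in Control (-2.55 ± 0.27). The amino acid transporter Slc6a14 had 1.18, 1.4 and 1.39 FPKM in double, against 6.82, 12.5 and 11 FPKM in Control (-2.50 ± 0.20). Control sample 1 was the highest in Mansc4 and the lowest Control sample in Agr3, Pla2r1 and Slc6a14. Bglap and Bglap2, which encode the bone protein osteocalcin, had the next largest falls (-3.91 ± 0.98 and -3.22 ± 0.80), with 0, 0.17 and 0.118 FPKM in double, against 68.2, 2.37 and 3.09 FPKM in Control for Bglap. They share near-identical sequence, and the calls of both ended without any single double sample. Rarres1, a gene induced by retinoids, had 7.31, 3.01 and 2.97 FPKM in double, against 91.8, 19.4 and 21.4 FPKM in Control, and its call ended without double sample 2 or 3. The 12 falls also include Cyp26b1, given below.

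**Figure D3:**
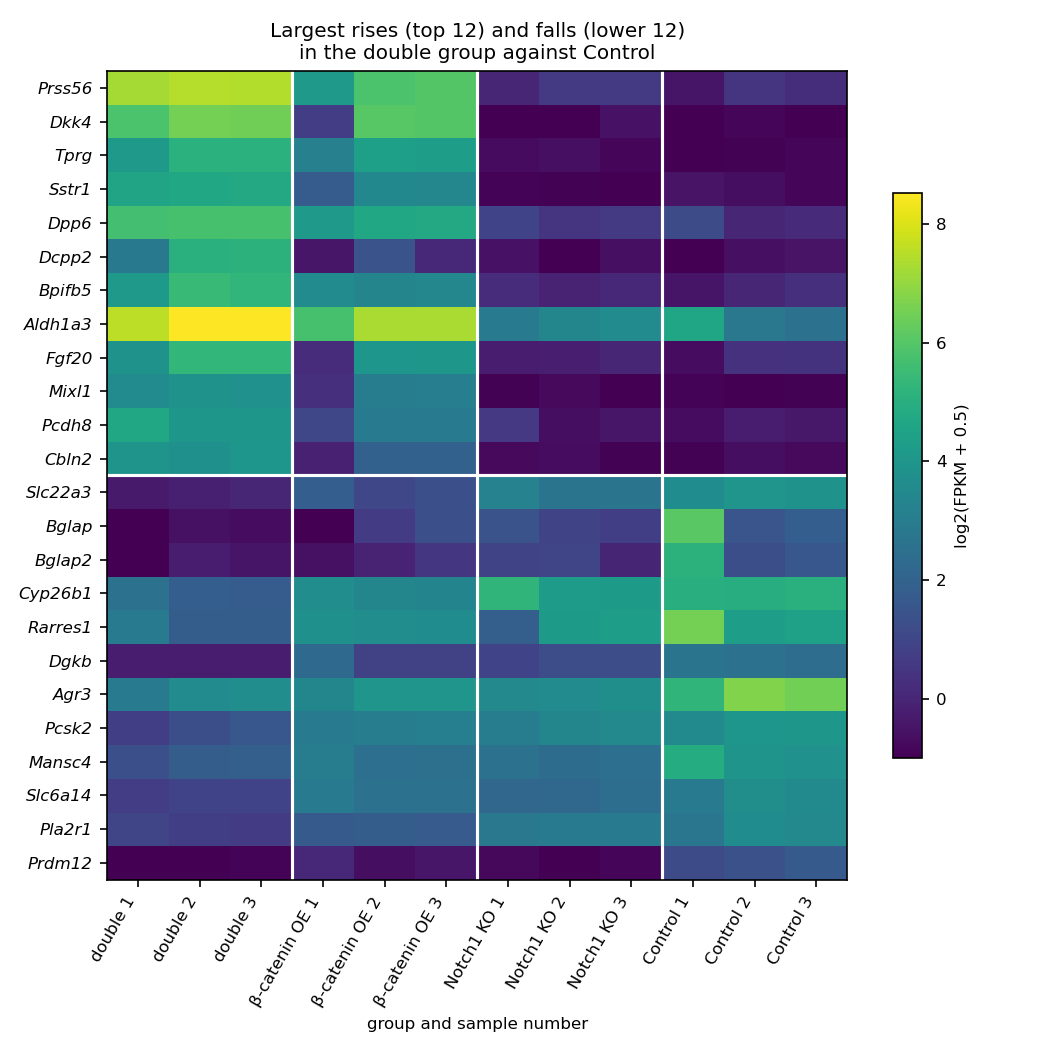
Colour gives log2(FPKM + 0.5) of the 12 largest rises (upper rows) and 12 largest falls (lower rows) of the naming rule in each of the 12 samples, in the order double, β-catenin OE, Notch1 KO, Control. Prss56 lies at 150.1 to 177 FPKM in the double samples and at 0.223 to 0.866 FPKM in Control, and Bglap at 0 to 0.17 FPKM in the double samples against 68.2 FPKM in Control sample 1 and 2.37 and 3.09 FPKM in the others.

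Genes of mitosis lay higher in the double group. Of 49 tested G2/M genes, active in dividing cells, 18 rose and 0 fell (median 1.28, against -0.02 over all genes), and at an unadjusted p under 0.05 41 were higher and 0 lower. All 49 had a positive log2 fold change, and in 46 the double samples lay above all Control samples, where 15.9% of all genes did so. Plk1 (chromosome 7, 122159293 to 122169875), a kinase that drives entry into mitosis, had 5.7, 3.52 and 3.5 FPKM in double, against 1.25, 0.714 and 1.07 FPKM in Control, a rise of 1.63 ± 0.35 (adjusted p = 0.0105). Nek2, a kinase of the centrosome, had 4.19, 2.57 and 3.06 FPKM in double, against 0.857, 0.917 and 0.877 FPKM in Control, a rise of 1.43 ± 0.30 (adjusted p = 0.00997). Double sample 1 was the highest in both, and the groups lay apart. These 2 calls held without each single library, and the count for the list did not. It was 2 without double sample 1 or Control sample 2, 3 without double sample 3 or Control sample 3, 4 without double sample 2 and 9 without Control sample 1. With samples 2 and 3 averaged it was 0 (29 at an unadjusted p under 0.05), with double sample 1 as the only double sample 0 (27 at an unadjusted p under 0.05), and with samples 2 and 3 alone 46. Summed over the list, the double samples had 272 to 336 FPKM, against 118 to 135 FPKM in the Control samples. The spread in the test comes from all 12 samples, and β-catenin OE sample 1 stood apart in genes such as Cdk1 (1.79, 11.9 and 12.4 FPKM in that group). Cdk1 had 13.2, 9.66 and 9.59 FPKM in double, against 3.47, 2.85 and 2.61 FPKM in Control, and did not pass (limma adjusted p = 0.0509). Not every member shows this, as Anln had 3.03, 3.44 and 3.14 FPKM in β-catenin OE. The fit of the 2 groups alone, which called 1433 genes in all, leaves out β-catenin OE sample 1 together with both single groups. Its count for this list is not given here, and the part of that sample by itself was not tested.

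Of 40 tested S phase genes, which act in DNA replication, 1 rose and 1 fell, and at an unadjusted p under 0.05 12 were higher and 1 lower. In 38 of them the log2 fold change was positive, with a median of 0.39, and its difference from the G2/M list was not tested. Pcna, the sliding clamp of DNA polymerases, had 55.2, 53.9 and 52.4 FPKM in double, against 55.2, 49.3 and 47.2 FPKM in Control, and Mcm2, part of the replicative helicase, had 9.58, 8.15 and 8.05 FPKM in double, against 5.77, 6.33 and 7.21 FPKM in Control. Pcna did not separate the groups, sample 1 of both having the same value. Pole, the catalytic subunit of DNA polymerase epsilon, was lower with 5.32, 5.79 and 5.87 FPKM in double, against 12, 13.4 and 13.5 FPKM in Control (-1.13 ± 0.16, adjusted p = 0.000834), and Fen1, a nuclease of replication, was called higher at 0.57 ± 0.16, a call that ended without any 1 of 5 libraries.

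Regulators of the G1 phase included genes of opposite known effect among those that rose. Ccnd1 (chromosome 7, 144914846 to 144941305), the cyclin that opens G1, had 134, 112 and 114 FPKM in double, against 30.1, 39.3 and 38.9 FPKM in Control, a rise of 1.72 ± 0.31 (adjusted p = 0.00339). Cdkn1a, the inhibitor p21, which p53 also drives, had 276, 361 and 353 FPKM in double, against 165, 96.6 and 102 FPKM in Control, a rise of 1.47 ± 0.20 (adjusted p = 0.000622). Cdkn1b, the inhibitor p27 that keeps supporting cells from dividing, had 63.6, 75.6 and 76.4 FPKM in double, against 133, 131 and 115 FPKM in Control, a log2 fold change of -0.81 ± 0.12 (adjusted p = 0.000967). In all 3 genes the groups lay apart. Of 17 tested members of that list 4 rose and 1 fell (median 0.15). The remaining rises were E2f3, a factor of cell cycle genes, and Cdkn1c, a call that ended without 4 of the 6 single libraries. Of 25 tested p53 targets and apoptosis genes, 3 rose and 0 fell (median 0.01), near the 12.5% called over all genes. At an unadjusted p under 0.05, 4 were lower. Gadd45g, a stress and differentiation gene, was one of those that rose, with 37.6, 61.7 and 62.5 FPKM in double, against 10.6, 9.15 and 9.05 FPKM in Control (2.40 ± 0.37), and Cdkn1a was another. Mdm2, a direct p53 target, had 22.9, 24.3 and 22.9 FPKM in double, against 22.2, 23.4 and 22 FPKM in Control, and its groups overlap.

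Hair cell genes were called in both directions. Of 21 tested early hair cell genes, 2 rose and 1 fell (median 0.36), or 14.3% against 12.5% over all genes, and 2 and 1 of these kept their call without each single library. Atoh1, the factor that starts hair cell fate, had 2.45, 1.04 and 0.837 FPKM in double, against 0.654, 0.823 and 0.947 FPKM in Control (difference 0.49 ± 0.33, adjusted p = 0.387). Double sample 1 was the highest, double sample 2 lay just above the Control samples, and double sample 3 lay among them. Pou4f3, a factor needed by hair cells, had 33.7, 28.8 and 27.9 FPKM in double, against 15.8, 22.2 and 21.7 FPKM in Control, all double samples above all Control samples, and the difference of 0.60 ± 0.23 did not pass (adjusted p = 0.123). Rasd2, a small G protein, had 29.9, 27.5 and 26.2 FPKM in double, against 10.9, 14.3 and 15.5 FPKM in Control and rose by 1.02 ± 0.17 (adjusted p = 0.00239). The RNA-binding gene Rbm24 had 18.4, 16.8 and 16.8 FPKM in double, against 38, 41.2 and 42.9 FPKM in Control and fell by 1.21 (adjusted p = 0.000175). The groups of both lay apart.

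Of 31 tested hair bundle and mechanotransduction genes, 4 rose and 2 fell (median 0.24), or 19.4%, and 1 and 1 of these kept their call without each library. Fscn2, which bundles actin in stereocilia, had 9.81, 9.63 and 9.5 FPKM in double, against 4.1, 5.37 and 5.78 FPKM in Control (0.87 ± 0.15, adjusted p = 0.00247). Clic5, of the stereocilium base, had 7.31, 7.16 and 6.74 FPKM in double, against 10.7, 15.2 and 13.4 FPKM in Control (-0.83 ± 0.13, adjusted p = 0.00124). Tmc1, of the transduction channel, had 4.3, 5.35 and 5.86 FPKM in double, against 3.91, 5.88 and 5.68 FPKM in Control, with overlapping groups. Of 28 genes of the hair cell synapse, channels and calcium buffers, 2 rose and 3 fell (median -0.02), or 17.9%. Syt1, a calcium sensor of vesicle release also found in neurons, had 14.3, 13.8 and 13.4 FPKM in double, against 40.1, 43.4 and 41.4 FPKM in Control and fell by 1.55 (adjusted p = 7.57e-06). Among the 5 calls of the list, only that of Syt1 held without each single library.

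Supporting cell genes moved in both directions, with more falls. Of 44 tested subtype genes, 8 rose, 18 fell and 18 did not pass (median -0.56, against -0.02 over all genes), and 6 and 11 kept their call without each single library. The list shares Lgr5 with the Wnt targets and Lfng and Hes5 with the Notch lists. Glul (chromosome 1, 153899926 to 153909723), glutamine synthetase, had 402, 418 and 424 FPKM in double, against 99.8, 81.5 and 85.1 FPKM in Control, a rise of 2.22 ± 0.10 (adjusted p = 3.22e-07), the smallest adjusted p among the named genes. The double samples were nearly equal and all above Control. Ngfr, the p75 neurotrophin receptor of pillar and Schwann cells, had 25.3, 34.4 and 33.3 FPKM in double, against 13.1, 9.33 and 10.1 FPKM in Control (1.47 ± 0.14). Bdnf, a neurotrophin, had 5.02, 7.22 and 7.27 FPKM in double, against 1.85, 2.68 and 2.39 FPKM in Control (1.31 ± 0.18). Pla2g7, a secreted phospholipase, had 256, 238 and 240.4 FPKM in double, against 111, 151 and 133 FPKM in Control (0.90 ± 0.12). All of these rose without overlap.

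Among falling supporting cell genes, S100b, a calcium-binding protein of Deiters cells and glia, had 63.6, 58 and 56.8 FPKM in double, against 286, 184 and 179.8 FPKM in Control (-1.82 ± 0.18). Igfbp3, which binds insulin-like growth factors, had 48.4, 39.9 and 42.6 FPKM in double, against 172, 162 and 152 FPKM in Control (-1.88 ± 0.15). Anxa5, an annexin, had 151, 163 and 158 FPKM in double, against 346, 474 and 465 FPKM in Control (-1.43 ± 0.14). Slc1a3, the glutamate transporter of inner phalangeal and border cells, had 25.2, 22 and 23.1 FPKM in double, against 35, 61.3 and 56.2 FPKM in Control (-1.06 ± 0.18). Groups lay apart in all 4, and Control sample 1 was the highest for S100b and the lowest Control sample for Slc1a3. Sox2, the factor of prosensory and supporting cells, was called lower with 33.9, 27.2 and 30.2 FPKM in double, against 41.7, 59.1 and 62.1 FPKM in Control (-0.81 ± 0.19), and this call ended without double sample 2, Control sample 2 or Control sample 3. Fgfr3, of pillar and Deiters cells, had 38.3, 39.4 and 39.2 FPKM in double, against 38.2, 46 and 47.5 FPKM in Control and did not pass. Of 29 tested prosensory and otic transcription factors, 2 rose and 3 fell (median -0.09), where 12.5% of all genes were called. Of these calls, 1 and 2 held without each single library. Isl1 had 52.6, 49.3 and 51.1 FPKM in double, against 70.1, 83.7 and 74.8 FPKM in Control (-0.57 ± 0.09), Lmx1a had 6.12, 3.07 and 2.44 FPKM in double, against 8.51, 12.5 and 12.2 FPKM in Control (-1.47 ± 0.27) and Zfp503 had 12, 9.41 and 9.73 FPKM in double, against 4.96, 5.83 and 5.4 FPKM in Control (0.88 ± 0.15).

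**Figure D4:**
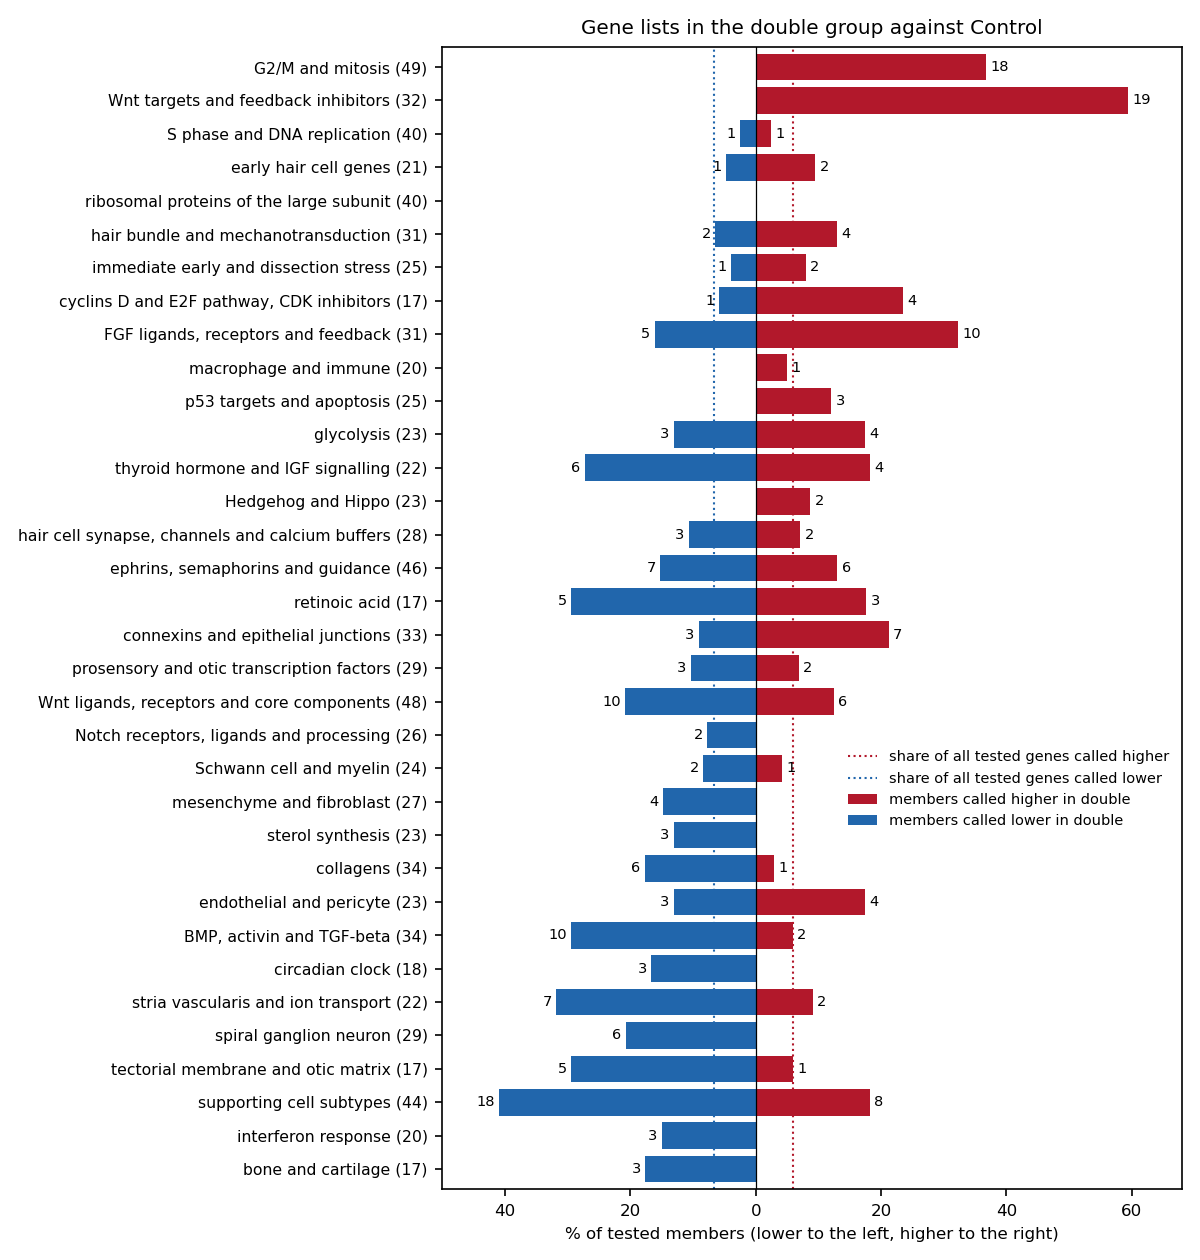
Bars give the percentage of tested members called higher (red, to the right) and lower (blue, to the left) in double against Control for the lists with at least 15 tested members, whose number stands in brackets, and the number at a bar is the count of members. Dotted lines mark the shares over all genes, 5.88% and 6.64%, and lists are ordered by median log2 fold change, from G2/M and mitosis (1.28) down to bone and cartilage (-0.995).

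FGF signalling genes, which pattern the cochlear epithelium and its pillar cells, had more members that rose than fell. Of 31 tested, 10 rose and 5 fell (median 0.14), and 9 and 2 kept their call without each library. The ligand Fgf3 had 18.4, 31.5 and 31 FPKM in double, against 0.514, 0.888 and 0.935 FPKM in Control, a rise of 4.40 ± 0.52 (adjusted p = 0.000258), and Fgf20, a ligand of the prosensory domain, had 13.9, 38.7 and 39.2 FPKM in double, against 0.126, 0.795 and 0.815 FPKM in Control (4.79 ± 0.84). Double sample 1 was the lowest double sample in both. Feedback genes of the receptor kinase pathway rose with them. Etv4, a factor induced by FGF, had 36.9, 32.8 and 34.1 FPKM in double, against 10.2, 11.7 and 11.3 FPKM in Control (1.60 ± 0.18). The inhibitor Spry4 had 14.1, 20.1 and 19.2 FPKM in double, against 2.12, 3.57 and 3.67 FPKM in Control (2.35 ± 0.37). Dusp6, the phosphatase of ERK, had 49.5, 52.3 and 54.6 FPKM in double, against 22.4, 23.5 and 22.9 FPKM in Control (1.17 ± 0.21). Il17rd, another inhibitor of FGF signalling, had 15.6, 19.2 and 19.3 FPKM in double, against 6.77, 7.09 and 7.03 FPKM in Control (1.31 ± 0.12). The receptors moved apart, with 62.8, 58.5 and 57.3 FPKM in double, against 41.7, 37.6 and 40.5 FPKM in Control for Fgfr1 (0.57 ± 0.10) and 13.7, 12.3 and 13.1 FPKM in double, against 24.1, 26.1 and 25.7 FPKM in Control for Fgfr2 (-0.93 ± 0.12).

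BMP, activin and TGF-beta genes had more members that fell than rose. Of 34 tested, 2 rose and 10 fell (median -0.34), and 2 and 7 of these kept their call without each single library. Chrdl1, an antagonist of BMP ligands, had 6.53, 6.07 and 5.71 FPKM in double, against 21, 22.9 and 20 FPKM in Control, a log2 fold change of -1.72 ± 0.17 (adjusted p = 7.79e-05). The ligand Gdf6 had 8.94, 7.91 and 7.24 FPKM in double, against 18.2, 20.2 and 22.7 FPKM in Control (-1.29 ± 0.16). The ligand Bmp6 had 37.1, 35.5 and 34.7 FPKM in double, against 62.3, 70 and 78.5 FPKM in Control (-0.96 ± 0.19) and the receptor Bmpr1b had 2.78, 2.53 and 2.86 FPKM in double, against 4.91, 6.08 and 5.69 FPKM in Control (-0.91 ± 0.16). The ligand Bmp7 rose with 80.6, 65.5 and 65.9 FPKM in double, against 37.9, 37.1 and 40.7 FPKM in Control (0.86 ± 0.14), and so did Inhba, a subunit of activin, with 10.5, 12.3 and 13.4 FPKM in double, against 3.73, 5.86 and 6.41 FPKM in Control (1.13 ± 0.25). None of these 6 genes had overlapping groups.

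Genes of retinoic acid metabolism moved in both directions. Of 17 tested, 3 rose and 5 fell (median -0.04), and 3 and 2 of these kept their call without each single library. Aldh1a3, which makes retinoic acid, had 189, 368 and 368 FPKM in double, against 24.3, 6.48 and 5.46 FPKM in Control, a rise of 4.87 ± 0.55 (adjusted p = 0.000186), with sample 1 the lowest in double and the highest in Control. Aldh1a2, its relative, had 10.8, 8.99 and 8.7 FPKM in double, against 21.7, 35.5 and 35.6 FPKM in Control, a log2 fold change of -1.62 ± 0.17 (adjusted p = 0.000114). Cyp26b1, which breaks retinoic acid down, had 5.31, 3.06 and 2.91 FPKM in double, against 30.5, 30 and 32.4 FPKM in Control, a log2 fold change of -2.93 ± 0.27 (adjusted p = 4.83e-05). Rdh10, which makes the aldehyde precursor, had 31, 38.9 and 40.9 FPKM in double, against 11.4, 13.7 and 13.1 FPKM in Control (1.49 ± 0.30). Stra6, a retinol transporter, had 15.7, 10.6 and 11.7 FPKM in double, against 5.42, 5.63 and 5.82 FPKM in Control (1.09 ± 0.20). Groups lay apart in all 5. Of 23 tested Hedgehog and Hippo genes, 2 rose and 0 fell, with 2 lower at an unadjusted p under 0.05. Tead2, the DNA-binding partner of the Hippo effectors, had 72.8, 57.2 and 55.6 FPKM in double, against 27.8, 36.2 and 40.3 FPKM in Control (0.83 ± 0.17).

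Some matrix genes of the tectorial membrane fell and some junction genes rose. Of 17 tested tectorial membrane and otic matrix genes, 1 rose and 5 fell (median -0.53), and 1 and 2 of these kept their call without each single library. Tectb, β-tectorin, had 1749, 1644 and 1622 FPKM in double, against 3646, 3711 and 3806 FPKM in Control, a difference of -1.16 ± 0.24 (adjusted p = 0.00927, and 0.61 after quantile normalization, which ended the call). Otogl, an otogelin-like protein, had 20.9, 21 and 21.5 FPKM in double, against 41.1, 53.3 and 52.5 FPKM in Control (-1.18 ± 0.14). Otol1, a collagen-like otolin, rose with 83.8, 84.8 and 90.4 FPKM in double, against 21.6, 30.1 and 28.2 FPKM in Control (1.69 ± 0.26). The groups of these 3 genes lay apart by a wide margin. Of 33 tested connexins and epithelial junction genes, 7 rose and 3 fell (median -0.06), and 5 and 0 of these kept their call without each single library. Cdh2, N-cadherin, had 91.6, 98 and 98.7 FPKM in double, against 17.7, 16.6 and 15.4 FPKM in Control, a rise of 2.50 ± 0.16 (adjusted p = 3.72e-06). The tight junction gene Cldn8 had 103, 143 and 142 FPKM in double, against 35.6, 51.7 and 48.7 FPKM in Control (1.51 ± 0.19). Cdh3, P-cadherin, had 17.5, 13.8 and 14.2 FPKM in double, against 8.65, 6.47 and 6.83 FPKM in Control (1.01 ± 0.20). The connexin Gjb5 had 0.582, 1.26 and 1.48 FPKM in the double samples and was listed at 0 in all Control samples. Gjb2, the main connexin of the cochlea, had 218, 211 and 206 FPKM in double, against 407, 287 and 299 FPKM in Control and did not pass.

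Genes of the stria vascularis, which makes the potassium-rich endolymph, had more members that fell than rose. Of 22 tested, 2 rose and 7 fell (median -0.37), and 3 of the falls held without each library. Slc26a4, the anion exchanger pendrin, had 4.0, 2.63 and 3.0 FPKM in double, against 8.01, 5.91 and 6.52 FPKM in Control (-0.99 ± 0.20), and Slc4a11, a membrane transporter, rose with 5.43, 4.46 and 4.31 FPKM in double, against 0.935, 0.657 and 0.564 FPKM in Control (2.11 ± 0.17). The defining marker Kcnq1, a potassium channel of marginal cells, had 3.89, 2.21 and 2.86 FPKM in double, against 4.61, 3.51 and 4.27 FPKM in Control and did not pass. Of 9 tested melanocyte genes 2 fell and 0 rose (0 at an unadjusted p under 0.05), both falls ending without single libraries.

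Some marker lists of other cell types differed between the groups, and others differed mainly through Control sample 1 or overlapped. The part of these cell types in the results was not tested. Summed neuronal markers of the spiral ganglion came to 528 to 618 FPKM in the double samples and 805 to 1246 FPKM in the Control samples. Of 29 tested, 6 fell and 0 rose (median -0.44, 0 higher at an unadjusted p under 0.05), and the 6 calls held without each library. Chrnb4 and Chrna3, subunits of the nicotinic acetylcholine receptor, had 0.162, 0.391 and 0.349 FPKM in double, against 4.71, 3.22 and 3.04 FPKM in Control for Chrnb4 and 0.0267, 0.0853 and 0.0357 FPKM in double, against 3.66, 1.52 and 1.69 FPKM in Control for Chrna3, with log2 fold changes of -2.37 ± 0.22 and -2.27 ± 0.35. The list median was -1.50 between samples 1 and 0.09 between samples 2 and 3. Uchl1, a ubiquitin hydrolase abundant in neurons, had 172, 191 and 191 FPKM in double, against 275, 342 and 360.2 FPKM in Control (-0.81 ± 0.13). Gap43, of growing axons, had 2.62, 4.52 and 3.91 FPKM in double, against 8.2, 8.4 and 11.1 FPKM in Control (-1.23 ± 0.22). Of the defining markers, Nefl had 15.8, 25.9 and 25.5 FPKM in double, against 93.3, 21.3 and 24.6 FPKM in Control, so that Control samples 2 and 3 lay within the double range and Control sample 1 far above it.

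Schwann cell and myelin markers summed to 746 to 938 FPKM in the double samples and 872 to 3549 FPKM in the Control samples. Of 24 tested, 1 rose and 2 fell, where 12.5% of all genes were called, and 1 and 1 of these kept their call without each single library. The median was -1.45 between samples 1 and 0.32 between samples 2 and 3. Mesenchyme and fibroblast markers summed to 4231 to 4549 FPKM in the double samples and 5114 to 6273 FPKM in the Control samples, with 4 of 27 lower and 0 higher (2 at an unadjusted p under 0.05), and 3 of the falls kept their call without each single library. Col1a1, the main collagen of bone and skin, had 3.86, 1.77 and 1.36 FPKM in double, against 19, 6.11 and 7.96 FPKM in Control (-1.96 ± 0.38). Tbx18, a factor of otic mesenchyme, had 39.6, 32.2 and 33.2 FPKM in double, against 57.8, 52.8 and 50.9 FPKM in Control (-0.62 ± 0.10). Bone and cartilage markers summed to 1101 to 1579 FPKM in the double samples and 1064 to 2777 FPKM in the Control samples, with 3 of 17 lower, and none of these calls held without each library. Osteoclast markers summed to 38.4 to 46.2 FPKM in the double samples and 57.2 to 93.3 FPKM in the Control samples, where Acp5, an acid phosphatase of osteoclasts, fell with 1.25, 1.48 and 1.02 FPKM in double, against 3.63, 4.25 and 3.61 FPKM in Control (-1.31 ± 0.24). Acp5 was the only member of that list called. The defining marker Ctsk, with the most weight in the sum, had 24.5, 32 and 34 FPKM in double, against 74.2, 41.7 and 41.6 FPKM in Control. Ctsk did not pass (limma adjusted p = 0.0545), and Control sample 1 was its highest. Of 34 tested collagens 1 rose and 6 fell (median -0.28), and 1 and 3 of these kept their call without each single library, with the rise in Col25a1 (14.2, 17.1 and 18.1 FPKM in double, against 5.8, 7.37 and 7.93 FPKM in Control) and falls that include Col14a1 (2.43, 2.49 and 2.49 FPKM in double, against 10.1, 5.79 and 6.56 FPKM in Control).

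Macrophage markers summed to 223 to 532 FPKM in the double samples and 165 to 792 FPKM in the Control samples, and 1 of 20 was called higher, Cd163, a call that ended without any 1 of 5 libraries. Csf1r, the receptor that defines macrophages, had 16.9, 5.64 and 5.69 FPKM in double, against 22.6, 8.24 and 8.8 FPKM in Control, and sample 1 was the highest of each group. Endothelial and pericyte markers summed to 482 to 579 FPKM in the double samples and 342 to 432 FPKM in the Control samples, with no overlap. Of 23 tested 4 rose and 3 fell, and 1 and 2 of these kept their call without each single library. At an unadjusted p under 0.05, 4 members were higher and 7 lower, so the sum does not describe the list as a whole. Emcn, endomucin, had the most weight in that sum in the double samples and rose with 291, 426 and 425 FPKM in double, against 135, 181 and 184 FPKM in Control (1.18 ± 0.22), while Cdh5, the cadherin of endothelium, fell with 5.03, 3.62 and 3.6 FPKM in double, against 13, 7.73 and 7.03 FPKM in Control (-1.06 ± 0.23) and Erg, an endothelial factor, fell with 1.9, 1.57 and 1.5 FPKM in double, against 6.92, 3.16 and 3.42 FPKM in Control (-1.14 ± 0.24). The defining endothelial marker Pecam1 had 4.91, 3.39 and 4.44 FPKM in double, against 8.99, 4.55 and 5.74 FPKM in Control. Its groups overlap, and it did not pass (-0.51 ± 0.24, limma adjusted p = 0.199). The endothelial sum was not taken without Emcn. Of 5 tested blood genes and 4 tested muscle genes none was called, and 1 and 1 were lower at an unadjusted p under 0.05. The globin gene Hbb-bt had 3.35, 14 and 13.8 FPKM in double, against 5.86, 51.9 and 59.5 FPKM in Control, and the muscle gene Des had 5.15, 5.16 and 4.76 FPKM in double, against 5.19, 7.79 and 8.39 FPKM in Control.

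**Figure D5:**
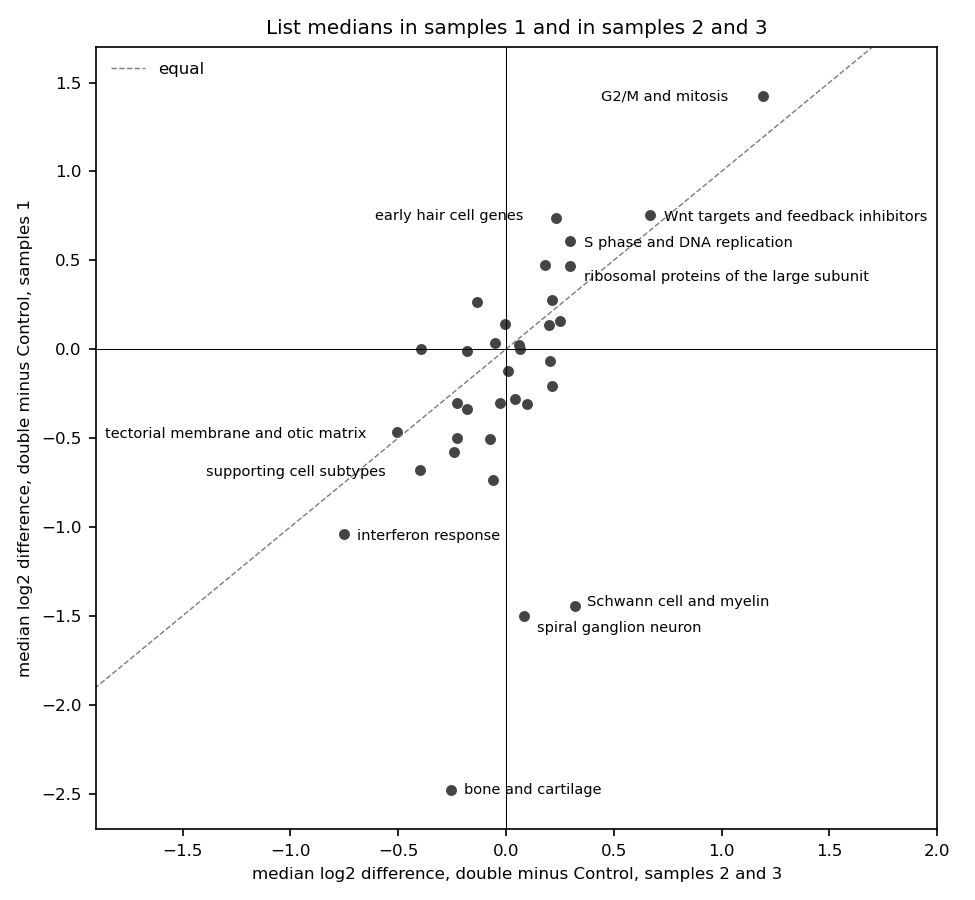
Each point is 1 list with at least 15 tested members, with the median log2 difference of double minus Control in samples 2 and 3 on the x axis and in samples 1 on the y axis, and the dashed line marks equal values. G2/M genes (1.42 in samples 1, 1.19 in samples 2 and 3) and Wnt targets (0.76 and 0.67) lie near the line, while bone and cartilage (-2.48 and -0.25), spiral ganglion (-1.50 and 0.09) and Schwann cell genes (-1.45 and 0.32) lie far below it.

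Lists of stress, metabolism and the clock are set here against 12.5% called over all genes. Of 20 tested interferon response genes 3 fell and 0 rose, and 0 of the falls kept their call without each single library. Of the list, 0 had a positive log2 fold change and the median was -0.86, and at an unadjusted p under 0.05 11 were lower and 0 higher. The list median was -1.04 between samples 1 and -0.75 between samples 2 and 3. Of 25 immediate early genes 2 rose and 1 fell, and 1 and 1 of these kept their call without each single library, with 12.7, 11.5 and 10.5 FPKM in double, against 8.53, 6.04 and 5.51 FPKM in Control for the nuclear receptor Nr4a1 (0.76 ± 0.17) and 8.06, 5.87 and 6.36 FPKM in double, against 18, 10.8 and 11.8 FPKM in Control for the factor Klf4 (-0.93 ± 0.19). Of 18 circadian clock genes 3 fell and 0 rose (1 at an unadjusted p under 0.05), and 1 of the falls kept its call without each single library, with 24.7, 26.6 and 28.7 FPKM in double, against 42.7, 36.2 and 34.6 FPKM in Control for the output factor Tef (-0.49 ± 0.10). Of 23 sterol synthesis genes 3 fell and 0 rose (0 at an unadjusted p under 0.05), and 1 of the falls kept its call without each single library, with 6.69, 8.62 and 9.17 FPKM in double, against 16.2, 14.9 and 13.3 FPKM in Control for Sc5d, an enzyme of late cholesterol synthesis (-0.83 ± 0.14). Of 23 glycolysis genes 4 rose and 3 fell, or 30.4%, and 1 and 1 of these kept their call without each single library. Those were Hk2, a hexokinase, with 4.87, 4.8 and 4.85 FPKM in double, against 2.75, 1.35 and 1.53 FPKM in Control (1.21 ± 0.19), and Slc16a1, a lactate transporter, with 3.76, 4.42 and 4.85 FPKM in double, against 17.1, 9.17 and 8.34 FPKM in Control (-1.25 ± 0.24). Of 40 large ribosomal proteins none was called, 39 had a positive log2 fold change with a median of 0.36, and 5 were higher and 0 lower at an unadjusted p under 0.05.

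Of 46 ephrins, semaphorins and other guidance genes 6 rose and 7 fell (median -0.03), or 28.3% against 12.5% over all genes, and 4 and 5 of these kept their call without each single library. The secreted cue Slit1 had 1.22, 1.47 and 1.25 FPKM in double, against 0.291, 0.106 and 0.157 FPKM in Control (1.41 ± 0.19) and its receptor Robo1 had 39.7, 41.9 and 42.3 FPKM in double, against 23.9, 28.6 and 28.8 FPKM in Control (0.60 ± 0.10), and both rose. The semaphorin Sema3c rose with 20.3, 24.7 and 24.6 FPKM in double, against 8.22, 12.8 and 11.1 FPKM in Control (1.10 ± 0.16), and Nrp2, a semaphorin receptor, fell with 12.8, 12.6 and 13.3 FPKM in double, against 33.4, 24.7 and 26.2 FPKM in Control (-1.08 ± 0.18). Groups were apart for all 4 genes. Ntn1, the cue netrin, fell with 3.81, 2.68 and 3.03 FPKM in double, against 6.63, 6.39 and 7.37 FPKM in Control (-1.001 ± 0.15). Of 22 thyroid hormone and insulin-like growth factor genes 4 rose and 6 fell (median -0.02), or 45.5%, and 2 and 4 of these kept their call without each single library. Dio2, which activates thyroid hormone, fell with 4.92, 10.2 and 11.1 FPKM in double, against 80.5, 33.4 and 31.1 FPKM in Control (-2.33 ± 0.45). Igf2, a growth factor, fell with 101, 98.2 and 96.1 FPKM in double, against 249, 169 and 175 FPKM in Control (-0.98 ± 0.16), and Trh, a peptide hormone gene, was at or near 0 in double with 0, 0 and 0.0453 FPKM in double, against 0.601, 2.29 and 2.38 FPKM in Control.

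The double group was also set directly against each single group in the same fit. Against β-catenin OE 396 genes were called, 178 higher and 218 lower, or 2.72% of those tested, and against Notch1 KO 1476, 716 higher and 760 lower, or 10.1%. With the sample number as a block these counts were 826 and 2290. With samples 2 and 3 averaged, limma called 0 against β-catenin OE (1202 at an unadjusted p under 0.05) and 175 against Notch1 KO. The count against β-catenin OE was 113 without double sample 2, 131 without double sample 3, 245 without double sample 1, and 169 and 211 without β-catenin OE samples 2 and 3. Against Notch1 KO it was 872 and 888 without double samples 2 and 3, and 790 and 808 without Notch1 KO samples 2 and 3. The calls described next held without each single library of the 2 groups compared. Of the genes lower in the double group, Lfng had 18.6, 24.1 and 22.8 FPKM in the double samples and 68.3, 46.7 and 48.3 FPKM in β-catenin OE (-1.29 ± 0.15, adjusted p = 0.0024), and Heyl had 5.87, 6.94 and 6.73 FPKM in the double samples and 17.2, 17.8 and 17.3 FPKM in β-catenin OE (-1.36 ± 0.10, adjusted p = 0.000174). Every double sample lay below every β-catenin OE sample in both. Cdkn1b had 63.6, 75.6 and 76.4 FPKM in the double samples and 136, 121 and 108 FPKM in β-catenin OE (-0.75 ± 0.12, adjusted p = 0.00721). Glul had 402, 418 and 424 FPKM in the double samples and 204, 214 and 218 FPKM in β-catenin OE (0.96 ± 0.10, adjusted p = 0.00122). Wnt6 had 19.2, 20.8 and 20.2 FPKM in the double samples and 2.99, 6.17 and 7.68 FPKM in β-catenin OE (1.84 ± 0.28, adjusted p = 0.0061). Glul and Wnt6 were thus higher in the double group than in β-catenin OE as well as Control. Rasd2, Slc4a11, Cbln2 and Dcpp2 were likewise higher than β-catenin OE, by 1.39 ± 0.17, 1.22 ± 0.17, 2.65 ± 0.43 and 3.96 ± 0.58, and Syt1, Rbm24, Aldh1a2, Slc22a3, Pcsk2 and Slc6a14 were lower, with log2 fold changes of -0.99 ± 0.11, -1.11 ± 0.14, -1.36 ± 0.17, -1.56 ± 0.22, -1.79 ± 0.22 and -1.85 ± 0.20. Other large rises over Control were not called against β-catenin OE. Aldh1a3 had 52.9, 157.8 and 157.6 FPKM in that group (1.42, limma adjusted p = 0.197), and Otol1 had 48.4, 110.9 and 100 FPKM (0.09, limma adjusted p = 0.896).

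Against Notch1 KO, 22 of 32 Wnt targets were higher and 0 lower (median 1.19), where 4.91% of all genes were higher, and 18 kept their call without each single library. This is the same list, chosen with earlier results of these data known. Against β-catenin OE its members Lgr5 and Axin2 were not called. Sp5 was higher than in that group by 1.44 ± 0.28 (limma adjusted p = 0.0234), a call that ended in 5 of the fits without a single library. Lgr5 had 49.9, 50.9 and 50.2 FPKM in the double samples and 7.91, 6.71 and 6.67 FPKM in Notch1 KO (2.75 ± 0.15, adjusted p = 1.85e-06). Sp5 had 161, 84.6 and 87.5 FPKM in the double samples and 8.33, 4.58 and 4.65 FPKM in Notch1 KO (4.12 ± 0.28, adjusted p = 7.55e-06). Ccnd1, from the cyclin list, had 134, 112 and 114 FPKM in the double samples and 48.8, 41.5 and 41.1 FPKM in Notch1 KO (1.44 ± 0.31, adjusted p = 0.0115, and 0.192 with samples 2 and 3 averaged). In each the double samples were all above the Notch1 KO samples. Lfng had 18.6, 24.1 and 22.8 FPKM in the double samples and 22.3, 23 and 23.2 FPKM in Notch1 KO, and these overlap. Plk1 had 5.7, 3.52 and 3.5 FPKM in the double samples, 1.36, 4.78 and 4.63 FPKM in β-catenin OE and 2.23, 1.95 and 2.01 FPKM in Notch1 KO, and passed against neither single group (0.33, adjusted p = 0.665, and 0.86, adjusted p = 0.168). Against Notch1 KO, 6 of 21 early hair cell genes were lower and 2 higher (median -0.55), 8 of 31 bundle genes were lower and 0 higher (median -0.45), and 6 of 28 synapse and channel genes were lower and 0 higher (median -0.48), where 5.21% of all genes were lower. Of these falls 3, 1 and 3 kept their call without each single library. Gfi1, a hair cell transcription factor, had 9.6, 10 and 9.46 FPKM in the double samples and 19.2, 16.5 and 16.9 FPKM in Notch1 KO (-0.82 ± 0.14, adjusted p = 0.0035). Calb1, a calcium buffer, had 75, 91.1 and 96.6 FPKM in the double samples and 166, 178 and 183 FPKM in Notch1 KO (-1.01 ± 0.17, adjusted p = 0.0033). Clic5 had 7.31, 7.16 and 6.74 FPKM in the double samples and 13.9, 15.3 and 15 FPKM in Notch1 KO (-1.01 ± 0.13, adjusted p = 0.000451). The double samples lay below the Notch1 KO samples in all 3 genes, and none of the 3 passed with samples 2 and 3 averaged (adjusted p = 0.15 for Gfi1, 0.117 for Calb1 and 0.0774 for Clic5). The comparisons of the double group share its samples, so they are not independent of each other.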

How the data were processed

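RNA-seq values were taken from 1 table of the whole series, in which the authors deposited FPKM for 12 samples and 23598 rows, beside p-values and log2 ratios of their own comparisons. Per the submitters' processing notes TopHat2 2.0.10 with Bowtie2 2.2.1 was used along with CASAVA 1.8 and Trimmomatic 0.23, then Cufflinks 2.2.1 and Cuffdiff, on mm10. Their settings are not known here. FPKM keeps no read count, so depth and counting error are unknown. Only the p-values of the authors' deposited table are quoted from their comparisons.

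Rows of at least 0.5 FPKM in 3 or more samples were kept (14581). log2(FPKM + 0.5) of all 12 samples was fitted with 4 group means in limma 3.58.1 (R 4.3.3), with a trend in the variance, 8 residual degrees of freedom, and Benjamini-Hochberg adjustment over all rows at 0.05. The script was tested on simulated data. Samples were grouped by titles in the labels.

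The members, lists and tests were chosen with earlier results of these data known. Named are Notch1, Ctnnb1, Lgr5, Plk1 and Ccnd1, the 12 largest called rises and falls of at least 1 FPKM without overlap (predicted, merged, ribosomal, small RNA and sex-linked rows left out), and up to 4 called members of each of 40 lists with the smallest p, or the highest expressed member where none was called. Other list members with values were chosen after their values were seen, mostly among those called without each single library. A few list members are not reported here. Same-numbered double and Control samples deviated together from their group means (correlations 0.324, 0.19 and 0.287 for samples 1, 2 and 3), as did those of double and Notch1 KO (0.47, 0.285 and 0.41). In every group sample 1 stood apart from samples 2 and 3, and the part of this split in the correlations was not tested. Whether the samples are paired is not known, since the labels name no shared litter or batch. Alternatives were other pseudocounts, filters and scalings, the sample number as a block, samples 2 and 3 averaged or alone, the compared groups alone and each library left out.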

Additional observations from a re-analysis of the deposited data

How the results depend on the processing

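The number of genes called in double against Control stayed within 1.5 times of 1826 with pseudocounts of 0.1 and 1 FPKM, other filters, median centring, quantile normalization and the 2 groups fitted alone. With each library left out it was 1128 to 1742. The sample number as a block, for which pairing was not tested, gave 2934 genes against Control, 826 against β-catenin OE (correlations 0.277, 0.0635 and 0.229) and 2290 against Notch1 KO. Samples 2 and 3 averaged gave 259, 0 and 175 in the same order, samples 2 and 3 alone 6134, 4281 and 6189, and double sample 1 as the only double sample, added after seeing the data, 807, 52 and 399. Against β-catenin OE the groups alone gave 228 and the fits without 1 library 113 to 356, and against Notch1 KO leaving out 1 library gave 790 to 1320. The fit of samples 2 and 3 alone measures only the small spread between those samples. Of the 132 called genes named by the rule, 132 kept their call with the block, 100 without each single library and 47 with samples 2 and 3 averaged, and none changed direction under any alternative. The cause of the other shifts was not tested. Without read counts, values near 0 FPKM carry an unknown counting error.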

Other observations

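The 8 genes given here lie outside the lists and were chosen after their values were seen, among those called without each single library. Ivl, involucrin of the skin's cornified envelope, had 5.9, 8.25 and 8.79 FPKM in double, against 0.0188, 0.0969 and 0.0672 FPKM in Control (3.84 ± 0.17). Il33, an alarm cytokine of epithelia, had 83.5, 66.2 and 66.6 FPKM in double, against 3.44, 7.45 and 6.12 FPKM in Control (3.61 ± 0.22), and Edar, the receptor of ectodysplasin in hair and tooth development, had 22.4, 28.5 and 27.8 FPKM in double, against 2.45, 1.8 and 1.54 FPKM in Control (3.47 ± 0.33). Cxcr4, a chemokine receptor, had 64.5, 119 and 120.1 FPKM in double, against 16.8, 10.4 and 10 FPKM in Control (2.96 ± 0.53).

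Tph2, the neuronal enzyme of serotonin synthesis, had 6.26, 12 and 12.7 FPKM in double, against 0.238, 0.496 and 0.502 FPKM in Control (3.52 ± 0.48). Cbln1, a synapse organiser related to Cbln2, had 12.3, 17.6 and 18 FPKM in double, against 0.486, 0.881 and 1.16 FPKM in Control (3.63 ± 0.34). Cav1, caveolin of cell membranes, had 31.7, 30.3 and 26.3 FPKM in double, against 119.9, 118 and 112 FPKM in Control (-1.97 ± 0.15), and Adamts15, a protease of the matrix, had 3.14, 3.89 and 3.68 FPKM in double, against 12.9, 16.8 and 17.3 FPKM in Control (-1.99 ± 0.13). The double and Control samples did not overlap in any of these 8 genes.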
